A study of Mus musculus with 16 samples.

Results

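Of the genes of mouse chromosome 10, 53 were listed because the RNA of this chromosome was higher in the carcinoma fibroblast lines CAF2 and CAF4, lower in the hyperplasia line HpAF1, and different between the cultures of the normal line NF3. The members were thus chosen by the measured levels of those lines, which are given below as a description without a test. Under the rule, a probe was used when its detection p (the rank of its signal among the array's negative controls) was under 0.01 on at least 2 arrays. Of the 53 genes, 50 had a probe under their name and 39 had at least 1 probe that met the rule, which gave 52 of their 75 probes. They are 39 of the 382 chromosome 10 genes and of the 7454 genes tested in all.

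The RNA came from 8 fibroblast lines of FVB/N mice, each measured in 2 cultures with 1 Illumina bead array per culture. The lesion lines came from the MMTV-PyMT model: HpAF1 from mammary hyperplasia, AdAF1 from an adenoma and the lines CAF1 to CAF4 from carcinomas. In that model a viral promoter active in mammary epithelium drives the polyoma middle T oncogene. NF2 and NF3 came from the normal gland. All 8 lines, the normal ones included, had been immortalized with hpvE6, the E6 gene of a human papillomavirus whose product removes p53, and had grown without other treatment on Matrigel mixed with collagen I for 72 h, under DMEM with 10% FBS. A stage before carcinoma is thus 1 line, and cultures of 1 line are its replicates, so p-values measure the spread between cultures and not between mice. The sources used here do not give the mice behind each line, their ages or whether a line is 1 clone.

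Genes on 1 chromosome share little in function. They share the dose of the chromosome: in cultured cells that have lost the p53 checkpoint, gain or loss of a whole chromosome or an arm is known to move the mean RNA of its genes up or down together, while single genes can depart from it through their own control. Neighbouring genes can also share regulatory elements. DNA copy number was not measured here, so the part of dose in the values below was not tested.

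All 16 arrays detected 6 to 8 of the 8 fibroblast markers fixed for the check, and none detected any of the 5 epithelial markers with a probe (Krt8, Krt18, Krt14, Krt5, Cdh1) or of the 3 leukocyte markers (Ptprc, Adgre1, Itgam). Of the 4 endothelial markers only Tek was detected, on 15 arrays, and of the 3 adipocyte markers only Adipoq, on 3. The pericyte markers Mcam, Cspg4 and Rgs5 were detected on 6, 3 and 1 arrays. Arrays detected 7445 to 9823 probes, and 39 to 51 of the 52 member probes. The cultures of NF3 stood furthest apart, with r = 0.936 over all tested probes, against 0.953 to 0.994 for the other lines, and the arrays of NF2, NF3 and culture 2 of CAF4 each correlated best with an array of another line. For HpAF1, CAF2 and CAF4 the members' medians and counts by side are therefore also given with NF3 cultures left out. So are the CAF3 medians and the counts of passing probes. Most other results that use the normal lines, single-gene values among them, are given with both NF3 cultures only. In RNA of a whole culture, a change in every cell and a change in the share of cells that carry it cannot be told apart.

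The members that carry most of the text are the neighbours Col6a1 and Col6a2 and the lysosomal gene Psap. Their promoters are shown because both collagen VI genes were lowest in HpAF1 and highest in CAF2 and CAF4 by line mean, and Psap differed between cultures by as much as between lines. Each run gives the 250 bases before the RefSeq start in build GRCm38.p6, 5′ to 3′ on the gene's strand, and capitals mark a match on either strand to TGACTCA, the AP-1 consensus, or to GGGCGG, the GC box.
Col6a1, chr10:76726045-76726294, minus strand: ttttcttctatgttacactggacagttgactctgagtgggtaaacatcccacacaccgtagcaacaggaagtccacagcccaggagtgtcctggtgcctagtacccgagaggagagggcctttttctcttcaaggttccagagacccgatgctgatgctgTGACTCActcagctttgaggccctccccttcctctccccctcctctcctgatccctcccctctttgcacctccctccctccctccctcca
Col6a2, chr10:76623631-76623880, minus strand: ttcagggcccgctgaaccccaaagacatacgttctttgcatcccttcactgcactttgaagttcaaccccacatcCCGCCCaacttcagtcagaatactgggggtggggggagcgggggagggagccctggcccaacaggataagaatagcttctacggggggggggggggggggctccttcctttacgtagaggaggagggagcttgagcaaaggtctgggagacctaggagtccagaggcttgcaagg
Psap, chr10:60277378-60277627, plus strand: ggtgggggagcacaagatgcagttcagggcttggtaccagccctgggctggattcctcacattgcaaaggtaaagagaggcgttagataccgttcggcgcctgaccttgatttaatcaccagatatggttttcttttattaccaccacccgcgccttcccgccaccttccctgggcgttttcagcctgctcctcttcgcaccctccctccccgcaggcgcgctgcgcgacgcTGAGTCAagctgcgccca
The AP-1 letters stood in the Col6a1 and Psap windows, and the GC box letters in that of Col6a2, on the opposite strand. The AP-1 letters were found in 3 of the 34 tested members that had a window (Col6a1, Psap and Smarcb1) and in 4.43% of all 27018 windows. The GC box letters were found in 23 of the 34 and in 33% of all windows, TATAAA in 3 and in 13%, and CCAAT in 9 and in 34.5%, each counted on both strands. The median number of CG dinucleotides was 21 in the members' windows and 6 in all windows, and the windows of Col6a1, Col6a2 and Psap held 3, 6 and 16. A match is a description of letters and not a site.

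**Figure D1:**
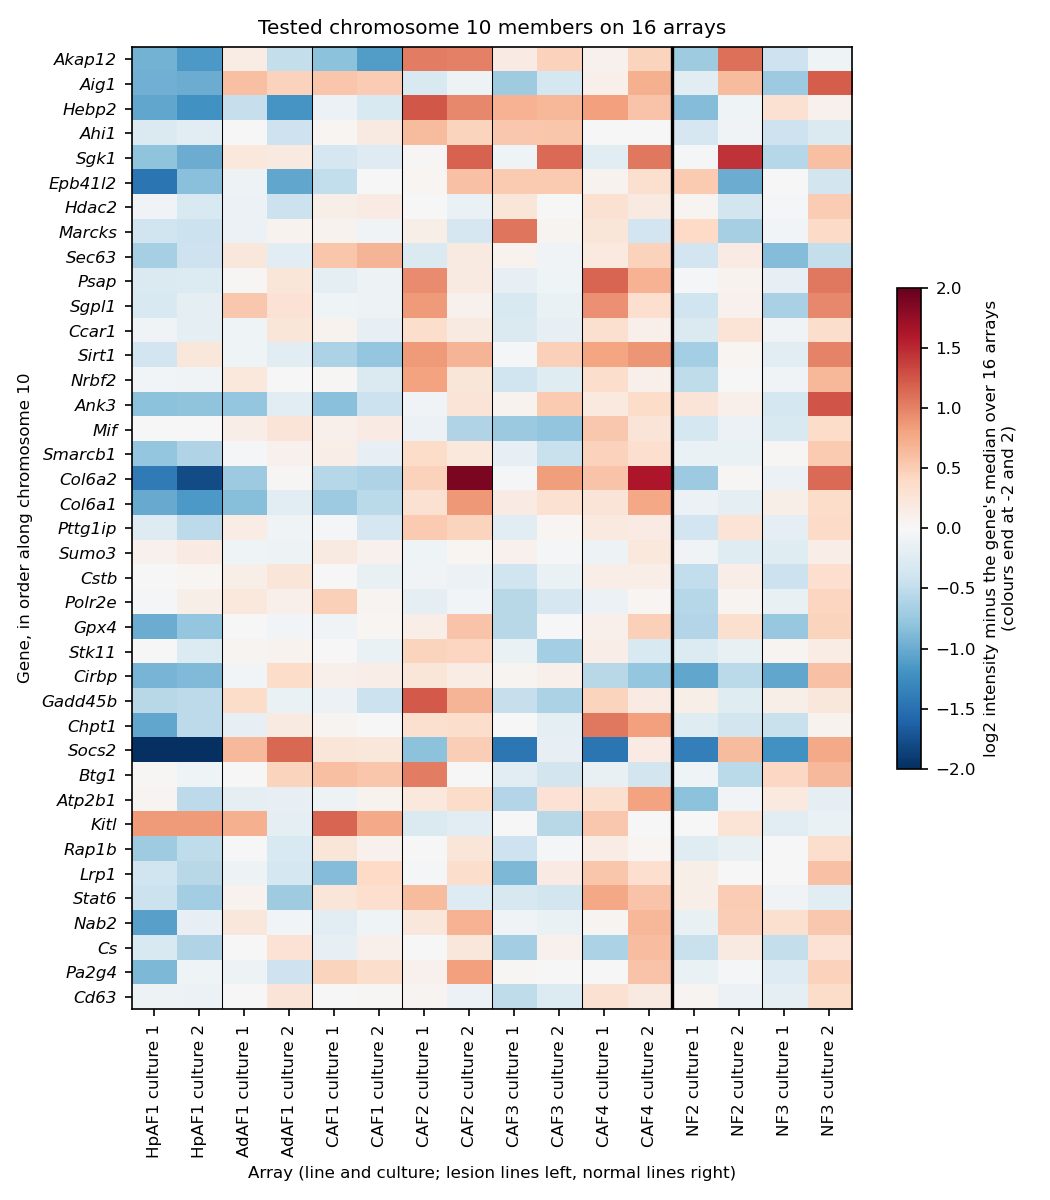
Level of the 39 tested members on 16 arrays, as log2 intensity minus the gene's median over the arrays, with genes in their order along chromosome 10 and lesion lines left of the normal lines. Both HpAF1 arrays are mostly blue, CAF2, CAF4 and culture 2 of NF3 mostly red, and Socs2 and Sgk1 switch between culture 1 and culture 2 within several lines.

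The members as a set are described first. Levels are log2 intensities, and a difference is a line's mean over 2 cultures minus the mean of NF2 and NF3. In HpAF1 the median difference over the 39 members was -0.43, and 33 of the 39 lay below the normal mean, beside 51.4% of all genes. CAF2 gave a median of 0.33 with 30 of 39 above, beside 48.8% of all genes. In CAF4 the median was 0.25 with 33 above, beside 48.7%. The members' choice fixed these directions. The 343 other tested genes of the chromosome had medians of -0.30 in HpAF1, 0.28 in CAF2 and 0.20 in CAF4, and all 7454 genes had medians of -0.02, -0.01 and -0.01. The listed genes lay with the rest of their chromosome, which was itself chosen for these differences. Between the NF3 cultures, culture 1 minus culture 2 had a median of -0.54 over the members, with 35 of 39 below 0 beside 48.7% of all genes, and of -0.43 over the other genes of the chromosome. In NF2 28 members were lower in culture 1, beside 50.1% of all genes, with a median of -0.39. In the lesion lines the members' medians lay between -0.13 and 0.04, and culture 1 was lower for 18 members in HpAF1 (beside 48.1% of all genes), 17 in AdAF1 (beside 46.2%), 17 in CAF1 (beside 49.4%), 19 in CAF2 (beside 50.2%), 23 in CAF3 (beside 48.9%) and 17 in CAF4 (beside 51%).

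These 3 line differences share the normal arrays, and the NF3 cultures moved them. Without culture 1 of NF3 the member medians were -0.63 in HpAF1, 0.10 in CAF2 and 0.09 in CAF4, and 36, 26 and 29 members lay on the side of the median. With NF2 alone as the normal line they were -0.33, 0.42 and 0.32, with 29, 32 and 37 members on that side. Without culture 2 of NF3 they were -0.27, 0.43 and 0.36.

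Array by array, with each gene set to its own median over the 16 arrays, the members' median was -0.40 and -0.51 in HpAF1, 0.21 and 0.25 in CAF2 and 0.20 and 0.33 in CAF4, against -0.25 and 0.01 in NF2 and -0.17 and 0.38 in NF3. Culture 2 of NF3 thus stood above both CAF2 cultures and both CAF4 cultures on this scale, while culture 1 stood with the lower normal arrays. In AdAF1 it was 0.01 and -0.05, in CAF1 0.00 and 0.00, and in CAF3 -0.16 and -0.04. Chromosome 10 was chosen for its levels in HpAF1, CAF2, CAF4 and the NF3 cultures, so its ranks there restate the choice. Among 20 chromosomes, the median difference of chromosome 10 was the lowest in HpAF1 (-0.31) and between the NF3 cultures (-0.44). In CAF4 it was the highest (0.20), and in CAF2 (0.29) only chromosome 14 was higher (0.40). It ranked 14th from the top in AdAF1, 9th in CAF1 and 17th in CAF3.

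**Figure D2:**
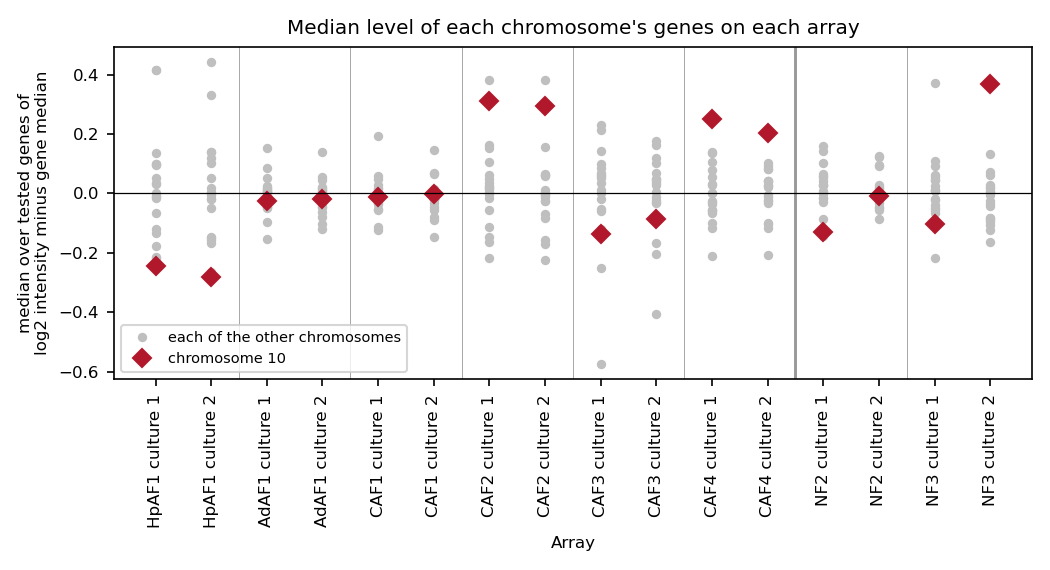
Median over the tested genes of each chromosome, as log2 intensity minus the gene's median over 16 arrays, on each array; red diamonds are chromosome 10 and grey points the other chromosomes. Chromosome 10 is at the low end in both HpAF1 cultures and high in both cultures of CAF2 and CAF4 and in culture 2 of NF3, but not in culture 1 of NF3. It was chosen for these levels.

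The order of genes along the chromosome, taken from the RefSeq table, separated the lines further. The chromosome's 382 tested genes were divided into sixths after the data had been seen. In CAF3 the first sixth, 63 genes from Akap12 to Gtf3c6, had a median difference of 0.17 with 71.4% of genes above the normal mean, whereas the other 319 genes had a median of -0.20 with 27.3% above. Of the members, 7 of 8 in the first sixth were above the normal mean in CAF3 and 9 of 31 in the rest, with medians of 0.44 and -0.22, beside 51.3% of all genes above. Relative to each gene's median over arrays, the first sixth was at 0.07 and 0.05 in the CAF3 cultures and the rest at -0.17 and -0.13. In the NF2 cultures the first sixth was at -0.09 and -0.08 and the rest at -0.13 and 0.00. In the NF3 cultures the first sixth was at -0.09 and 0.03 and the rest at -0.11 and 0.44. With NF2 alone as normal the CAF3 medians were 0.24 in the first sixth and -0.08 in the rest, without culture 1 of NF3 they were 0.09 and -0.35, and without its culture 2 they were 0.27 and -0.06.

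The same sixths were applied to the NF3 cultures. They are equal bins set after the data were seen, so they do not locate a shared place of change. Both NF3 arrays are part of the normal mean used for CAF3, so the CAF3 and NF3 differences are not separate observations. Over the tested chromosome 10 genes, culture 1 minus culture 2 had a median of -0.10 in the first sixth and of -0.49 in the rest. On the per-gene scale culture 2 was at 0.03 in the first sixth and at 0.44 in the rest. Of the members, 6 of 8 in the first sixth and 29 of 31 in the rest were lower in culture 1, beside 48.7% of all genes. The members' medians were -0.38 and -0.56, less far apart than those of the chromosome's genes. In CAF2, CAF4 and HpAF1 both parts lay on the same side. CAF2 had medians of 0.40 and 0.28, CAF4 of 0.28 and 0.19, and HpAF1 of -0.23 and -0.32. NF2 culture 1 minus culture 2 had -0.03 in the first sixth and -0.15 in the rest.

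**Figure D3:**
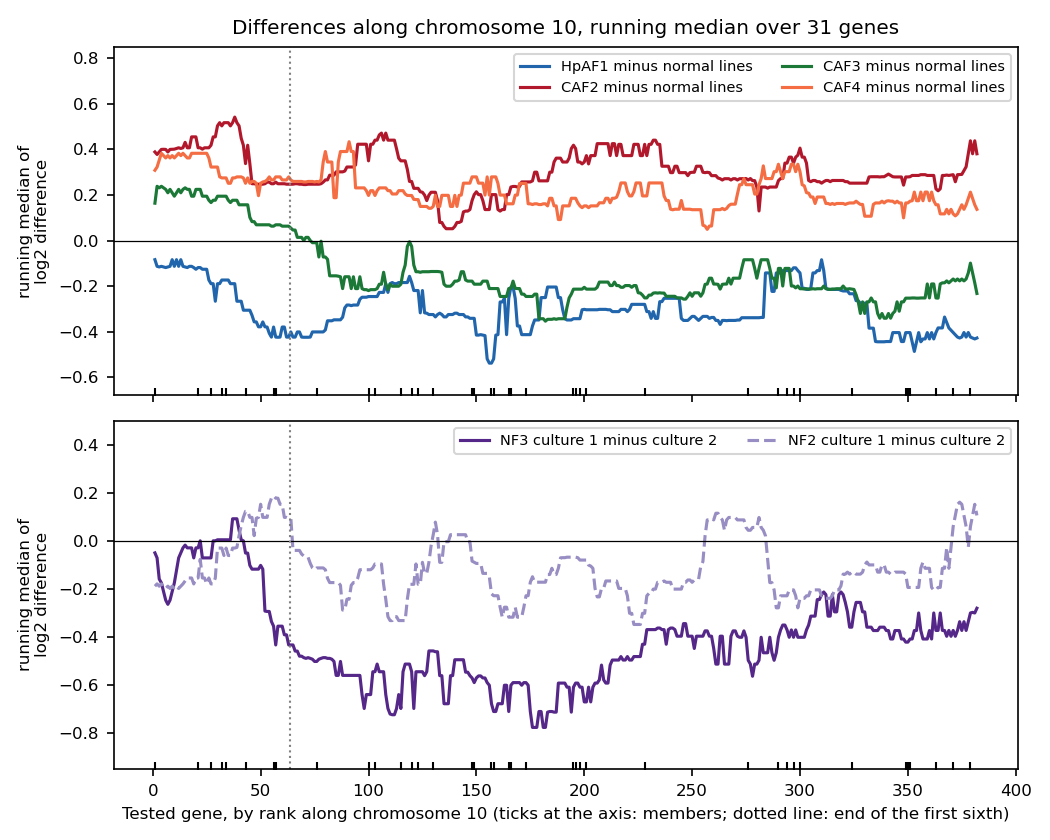
Running median over 31 neighbouring tested genes of the log2 difference along chromosome 10, for 4 lesion lines minus the normal lines (top) and for culture 1 minus culture 2 of NF3 and NF2 (bottom). CAF3 is above 0 in the first sixth, where its median is 0.17, and below 0 in most of the rest. The NF3 curve varies along the chromosome, with 0.09 at gene 37, -0.43 at gene 63, -0.78 at gene 176 and -0.21 at gene 311.

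The features the rule names can be counted per gene. Since the chromosome was chosen by them, the counts for its genes are a description only. HpAF1 lower, CAF2 and CAF4 higher, and NF3 culture 1 lower than culture 2 held together in 19 of the 39 members (48.7%), in 140 of the 343 other chromosome 10 genes (40.8%) and in 8.87% of all genes. The members that followed all of them were Akap12, Ccar1, Chpt1, Col6a1, Col6a2, Cs, Gadd45b, Gpx4, Nab2, Nrbf2, Pa2g4, Psap, Pttg1ip, Rap1b, Sec63, Sgk1, Sgpl1, Sirt1 and Smarcb1. In HpAF1 both cultures lay below all 4 normal cultures for 17 members, beside 20.2% of all genes, and above them for 1, Kitl, beside 19.8%. Among the 17, Aig1, Ank3, Chpt1, Lrp1, Nab2 and Stat6 were detected on neither HpAF1 array, so their differences lie near background. In CAF2 both lay above for 7 members (Ahi1, Atp2b1, Chpt1, Gadd45b, Hebp2, Pttg1ip, Stk11), beside 10.7%, and below for 1, Kitl, beside 11.4%. Chpt1 did so by its brightest probe only. On its probe ILMN_2740149 culture 2 of CAF2 (6.79) lay below culture 2 of NF3 (6.92). On ILMN_2740151 culture 1 of CAF2 (7.02) lay below culture 2 of NF3 (7.07). No array of HpAF1, CAF2 or the normal lines detected Kitl. In CAF4 both lay above for 6 (Ahi1, Atp2b1, Chpt1, Hebp2, Sec63, Stat6), beside 7.24%, and below for 0, beside 7.28%.

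Tests were run on line differences that the rule does not name, with limma on all 10453 tested probes and Benjamini-Hochberg adjustment over all of them. They are not independent of the choice: AdAF1, CAF1 and CAF3 are set against normal lines whose NF3 arrays the choice used, and CAF2 and CAF4 were themselves used. In AdAF1 minus the normal lines 1 of the 52 member probes passed an adjusted p of 0.05, a Col6a1 probe, beside 3.96% of all probes. In CAF1 3 passed, of Sec63, Col6a1 and Kitl, beside 7.08%, and 2 passed when a probe had to be detected on 4 or more arrays; Kitl met the filter through AdAF1 and CAF1 alone, so its pass supports nothing. In CAF3 1 passed, of Ahi1, beside 4.3%. Between CAF2 and CAF4 0 passed by limma, beside 3.2%; 7 member probes had an unadjusted p under 0.05, beside 15.7% of all probes. The members as a set were near the normal mean in AdAF1 and CAF1, with median differences of 0.01 and -0.01 beside -0.03 and -0.01 over all genes, and at -0.15 in CAF3 beside 0.01. Above the normal mean were 22 of the 39 in AdAF1, beside 46.9% of all genes, 19 in CAF1, beside 49.1%, and 16 in CAF3, beside 51.3%. The CAF3 median was -0.34 without culture 1 of NF3 and 0.03 without culture 2. CAF2 minus CAF4 had a median of 0.02 over members and of 0.01 over all genes. The calls rest on few arrays: with either culture of CAF1 left out 0 member probes passed in CAF1, the same held for AdAF1 and CAF3 with either of their cultures left out, and without culture 1 of NF3 2 passed in AdAF1 and 4 in CAF3. Without culture 2 of NF3 2 passed in CAF3. Without culture 1 of NF2 0 passed in AdAF1, and without its culture 2 1 passed in CAF1 and 2 in CAF3. Between CAF2 and CAF4 1 passed without culture 2 of CAF2. With NF2 alone as normal 0 member probes passed in AdAF1, CAF1 or CAF3.

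Matrix genes come first. Col6a1 and Col6a2 encode chains of collagen VI, a microfibrillar collagen that fibroblasts secrete around cells, and lie side by side on the chromosome. Col6a1, read by its brightest probe, stood at 13.16 and 13.03 for HpAF1, 13.33 and 13.94 for AdAF1, 13.46 and 13.64 for CAF1, 14.49 and 15.04 for CAF2, 14.35 and 14.49 for CAF3, 14.43 and 14.95 for CAF4, against 14.05 and 14.00 for NF2 and 14.30 and 14.54 for NF3. Both HpAF1, AdAF1 and CAF1 cultures lay below all 4 normal cultures, while CAF2 and CAF4 had their culture 2 above and culture 1 within the range of the normal cultures. A dimmer Col6a1 probe (ILMN_1259388) gave 11.78 and 11.39 for HpAF1, 11.96 and 12.56 for AdAF1, 12.46 and 12.59 for CAF1, 13.25 and 13.71 for CAF2, 12.88 and 12.72 for CAF3, 13.41 and 13.55 for CAF4, against 12.96 and 12.94 for NF2 and 13.26 and 13.53 for NF3. In AdAF1 it fell by 0.91 (SE 0.21, adjusted p = 0.0313, limma), and both AdAF1 cultures lay below the lowest normal culture. For the brightest probe the same difference was -0.59 (SE 0.22, adjusted p = 0.183, limma). One more probe (ILMN_2589422), detected on 10 arrays and on neither CAF1 array, was at least 2.1-fold lower in CAF1, where its mean was 5.71, against 6.90 in the normal lines (adjusted p = 0.0425, limma). The other 2 probes were also lower in CAF1 without passing, with differences of -0.64 and -0.68 and adjusted p of 0.0903 and 0.0962 (limma). In CAF3 the Col6a1 probes disagreed in sign, from -0.37 to 0.73, the widest gap of any member.

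Col6a2 had levels of 9.72 and 9.35 for HpAF1, 10.41 and 11.16 for AdAF1, 10.56 and 10.52 for CAF1, 11.59 and 13.03 for CAF2, 11.12 and 11.97 for CAF3, 11.71 and 12.75 for CAF4, against 10.42 and 11.15 for NF2 and 11.01 and 12.27 for NF3. HpAF1 lay below every other array, and in AdAF1, CAF2, CAF3, CAF4, NF2 and NF3 culture 1 was below culture 2, with differences (culture 1 minus culture 2) from -1.43 to -0.74. Its AdAF1 and CAF1 differences were -0.43 and -0.67 (SE 0.48 each) and did not pass (adjusted p = 0.706 and 0.439, limma). In HpAF1 its difference from the normal lines was -1.68, and in CAF2 and CAF4 it was 1.10 and 1.02. Col6a3, the partner chain encoded on another chromosome, had no tested probe.

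Signalling genes included the member of largest range. Socs2, an inhibitor of cytokine and growth hormone receptor signalling, had the largest range of line means of all members, 3.83. Its levels were 7.47 and 6.87 for HpAF1, 10.74 and 11.24 for AdAF1, 10.33 and 10.32 for CAF1, 9.28 and 10.58 for CAF2, 8.65 and 9.93 for CAF3, 8.63 and 10.25 for CAF4, against 8.73 and 10.73 for NF2 and 8.89 and 10.84 for NF3. HpAF1 stood lowest, below all other arrays, and the gene was lower in culture 1 than in culture 2 of CAF2, CAF3, CAF4, NF2 and NF3, with differences from -1.99 to -1.28; in AdAF1 the difference was -0.50. AdAF1 and CAF1 differed from the normal lines by 1.20 and 0.52 (SE 0.69 each, adjusted p = 0.406 and 0.695, limma), within that spread.

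Sgk1, a serum- and glucocorticoid-induced kinase, stood at 12.46 and 12.27 for HpAF1, 13.46 and 13.44 for AdAF1, 12.93 and 13.01 for CAF1, 13.29 and 14.43 for CAF2, 13.17 and 14.40 for CAF3, 13.03 and 14.31 for CAF4, against 13.23 and 14.71 for NF2 and 12.70 and 13.87 for NF3. CAF2, CAF3, CAF4, NF2 and NF3 had culture 1 below culture 2, with differences from -1.48 to -1.15, while in HpAF1, AdAF1 and CAF1 the cultures differed by 0.19 or less. HpAF1 was the lowest line, at -1.26 from the normal mean, and no tested difference passed. Akap12, a scaffold protein for protein kinases A and C, read 11.04 and 10.84 for HpAF1, 12.14 and 11.52 for AdAF1, 11.17 and 10.88 for CAF1, 13.02 and 13.00 for CAF2, 12.16 and 12.46 for CAF3, 12.08 and 12.44 for CAF4, against 11.28 and 13.09 for NF2 and 11.58 and 11.91 for NF3. CAF2 was high in both cultures, 1.04 above the normal mean, and HpAF1 and CAF1 were low in both, at -1.02 and -0.94. The CAF1 difference did not pass (SE 0.38, adjusted p = 0.168, limma), and in NF2 alone culture 1 minus culture 2 was -1.81.

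**Figure D4:**
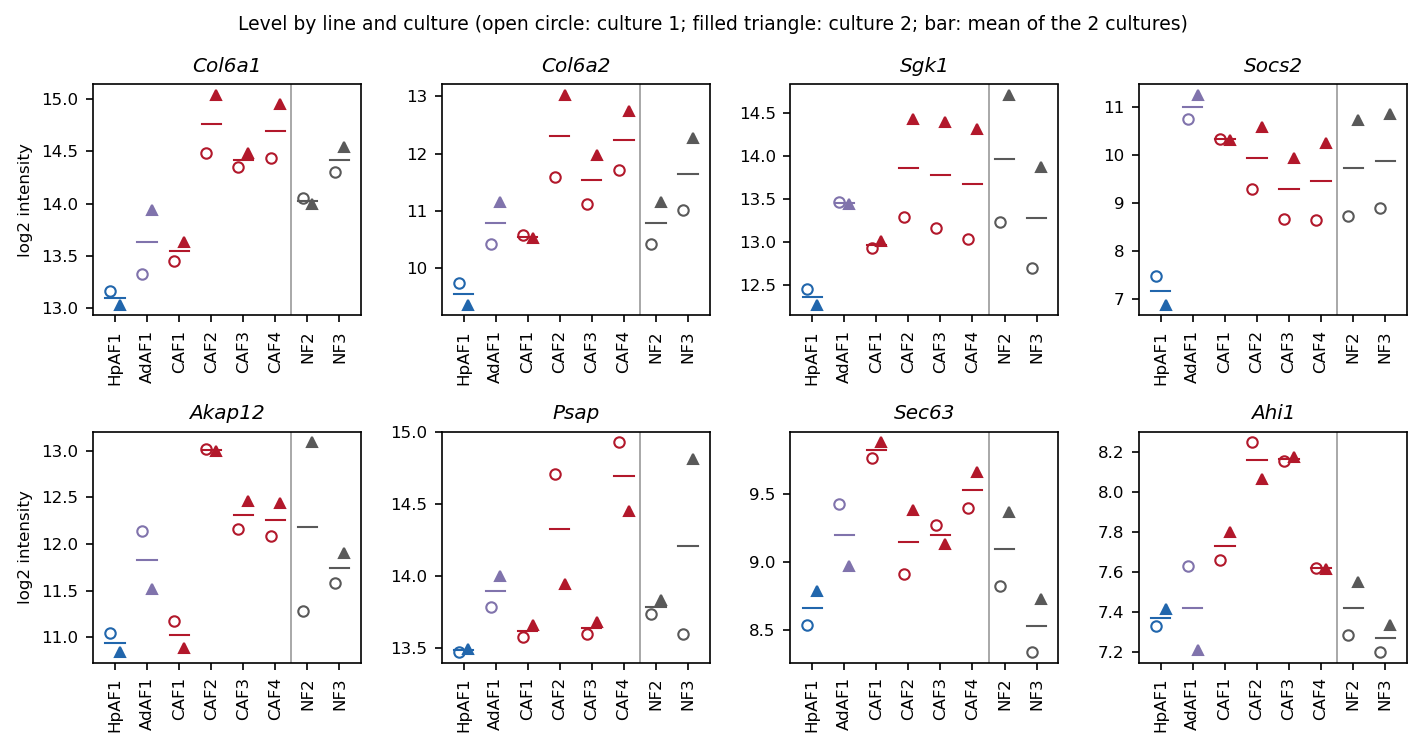
Log2 intensity of 8 members by line, lesion lines left and normal lines right of the grey line; open circles are culture 1, filled triangles culture 2, and bars the mean of the 2 cultures. Col6a1 is low in HpAF1, AdAF1 and CAF1 and Col6a2 in HpAF1; Sgk1 and Socs2 are higher in culture 2 than in culture 1 in CAF2, CAF3, CAF4, NF2 and NF3, by more than in the other lines.

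Mif, a secreted cytokine that recruits and holds macrophages, had levels of 14.98 and 14.95 for HpAF1, 15.09 and 15.22 for AdAF1, 15.06 and 15.13 for CAF1, 14.84 and 14.37 for CAF2, 14.22 and 14.17 for CAF3, 15.51 and 15.22 for CAF4, against 14.62 and 14.84 for NF2 and 14.66 and 15.33 for NF3. CAF3 lay below every normal culture in both cultures, at -0.67 from the normal mean, without passing (SE 0.21, adjusted p = 0.0951, limma). Mif went against the set in HpAF1 (0.10) and in CAF2 (-0.26). CAF2 minus CAF4 was -0.76, with both CAF2 cultures below both CAF4 cultures.

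Kitl encodes stem cell factor, the ligand of the Kit receptor. It was detected on only 3 arrays, both of CAF1 and 1 of AdAF1, and thus stood just inside the rule. Its levels were 6.23 and 6.22 for HpAF1, 6.09 and 5.19 for AdAF1, 6.54 and 6.13 for CAF1, 5.10 and 5.16 for CAF2, 5.37 and 4.82 for CAF3, 5.92 and 5.39 for CAF4, against 5.37 and 5.64 for NF2 and 5.17 and 5.24 for NF3. Its mean was 6.34 in CAF1, against 5.35 in the normal lines, where no array detected it, and the bound on the fold was under 1, so no fold is given. HpAF1 levels were about as high as those of CAF1 and were not detected either. Just outside the rule were Hk1 and Utrn, whose lowest detection p just missed 0.01, and Fyn, at 0.0125.

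Of the other signalling members, Stk11, the LKB1 kinase upstream of AMPK, was above all normal cultures in CAF2, by 0.49 from the normal mean. Rap1b, a small GTPase of cell adhesion, was below all normal cultures in HpAF1 (-0.60). Lrp1, an endocytic receptor, Stat6, the interleukin 4 response factor, and Nab2, a corepressor of EGR factors, were detected on 5, 4 and 9 arrays and on neither HpAF1 array, and their differences have no lower bound above 1 there. Over the 10 signalling members, 8 had lower levels in HpAF1, these 3 undetected ones among them, and 8 had higher levels in CAF4. The 8 in CAF4 include Kitl, which no CAF4 or normal array detected. They also include Lrp1, Stat6 and Nab2, each detected on 1 CAF4 array. Of all 39 members 33 lay on each of these sides, which the choice fixed.

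Membrane and cytoskeleton genes included the CAF3 call. Ahi1, a protein of the base of the primary cilium, had levels of 7.33 and 7.41 for HpAF1, 7.63 and 7.21 for AdAF1, 7.66 and 7.80 for CAF1, 8.25 and 8.07 for CAF2, 8.16 and 8.17 for CAF3, 7.62 and 7.61 for CAF4, against 7.28 and 7.55 for NF2 and 7.20 and 7.34 for NF3. It rose in CAF3 by 0.82 (SE 0.16, adjusted p = 0.015, limma), and both cultures of CAF1, CAF2, CAF3 and CAF4 lay above all 4 normal cultures. In CAF1 its difference of 0.39 did not pass (SE 0.16, adjusted p = 0.176, limma), and HpAF1 and AdAF1 lay within the normal cultures or overlapped them.

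Marcks, a substrate of protein kinase C that links the membrane to actin, read 11.85 and 11.82 for HpAF1, 12.13 and 12.32 for AdAF1, 12.31 and 12.18 for CAF1, 12.36 and 11.91 for CAF2, 13.32 and 12.30 for CAF3, 12.48 and 11.86 for CAF4, against 12.65 and 11.58 for NF2 and 12.20 and 12.63 for NF3. Culture 1 of CAF3 was the highest array, and the cultures of CAF3 differed by 1.02, as did those of NF2 by 1.07. Epb41l2, a linker of the membrane skeleton to membrane proteins, was detected on 10 arrays and on neither array of HpAF1, with levels of 5.19 and 5.81 for HpAF1, 6.55 and 5.61 for AdAF1, 6.16 and 6.64 for CAF1, 6.69 and 7.24 for CAF2, 7.18 and 7.17 for CAF3, 6.71 and 6.98 for CAF4, against 7.17 and 5.66 for NF2 and 6.67 and 6.29 for NF3. It was detected in both cultures of CAF1, CAF2, CAF3 and CAF4, in 1 of AdAF1 and, among the normal arrays, only in culture 1 of NF2. Ank3, ankyrin G, detected on 5 arrays, had 5.08 and 5.10 for HpAF1, 5.13 and 5.69 for AdAF1, 5.07 and 5.47 for CAF1, 5.84 and 6.16 for CAF2, 5.97 and 6.43 for CAF3, 6.09 and 6.28 for CAF4, against 6.16 and 6.01 for NF2 and 5.55 and 7.16 for NF3. Culture 2 of NF3 was its highest array, and it was detected on no array of HpAF1, AdAF1, CAF1 or CAF2. Atp2b1, a plasma membrane calcium pump, was above all normal cultures in CAF2 (0.51) and CAF4 (0.78).

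Genes of protein targeting and modification gave the CAF1 call of lowest adjusted p. Sec63, part of the translocon that passes proteins into the endoplasmic reticulum, had levels of 8.54 and 8.79 for HpAF1, 9.43 and 8.97 for AdAF1, 9.76 and 9.88 for CAF1, 8.91 and 9.38 for CAF2, 9.27 and 9.13 for CAF3, 9.40 and 9.66 for CAF4, against 8.82 and 9.37 for NF2 and 8.34 and 8.73 for NF3. It rose in CAF1 by 1.01 (SE 0.22, adjusted p = 0.0196, limma), and both CAF1 cultures lay above the highest normal culture. A second Sec63 probe was 0.80 higher in CAF1 (SE 0.24) and did not pass (adjusted p = 0.0727, limma). Sumo3, a small ubiquitin-like modifier, had the smallest range of line means, 0.28, with 11.65 and 11.72 for HpAF1, 11.47 and 11.45 for AdAF1, 11.73 and 11.64 for CAF1, 11.48 and 11.60 for CAF2, 11.65 and 11.52 for CAF3, 11.45 and 11.76 for CAF4, against 11.49 and 11.32 for NF2 and 11.32 and 11.68 for NF3. It stood 0.23 above the normal mean in HpAF1, against the direction of the set. Pttg1ip, a membrane protein that binds the securin Pttg1, was above all normal cultures in CAF2 (0.46) and 0.42 lower than the normal mean in HpAF1.

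Lysosomal genes were 3. Psap, the precursor of the saposins that help break down sphingolipids, read 13.47 and 13.50 for HpAF1, 13.79 and 14.00 for AdAF1, 13.58 and 13.66 for CAF1, 14.71 and 13.94 for CAF2, 13.60 and 13.68 for CAF3, 14.93 and 14.45 for CAF4, against 13.74 and 13.83 for NF2 and 13.60 and 14.81 for NF3. Both CAF4 cultures and culture 1 of CAF2 were high, but so was culture 2 of NF3, with a difference of -1.22 for culture 1 minus culture 2; HpAF1 lay below all normal cultures. Cstb, cystatin B, an inhibitor of cathepsins, had 14.50 and 14.54 for HpAF1, 14.62 and 14.73 for AdAF1, 14.49 and 14.35 for CAF1, 14.43 and 14.38 for CAF2, 14.10 and 14.37 for CAF3, 14.63 and 14.63 for CAF4, against 14.00 and 14.63 for NF2 and 14.06 and 14.84 for NF3. It was 0.14 above the normal mean in HpAF1, and culture 1 minus culture 2 was -0.63 in NF2 and -0.78 in NF3, larger than any line mean differed from the normal mean. Cd63, a tetraspanin of late endosomes and exosomes, lay below all normal cultures in CAF3 (-0.41).

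Metabolic genes were lower in HpAF1 for 6 of 6 members, of which Aig1 and Chpt1 were detected on neither HpAF1 array, and higher in CAF4 for 6 of 6, with a median of 0.53. The choice fixed these directions. Of all 39 members 33 were lower in HpAF1 and 33 higher in CAF4, beside 51.4% and 48.7% of all genes. Hebp2, a haem-binding protein, had levels of 6.86 and 6.68 for HpAF1, 7.43 and 6.71 for AdAF1, 7.77 and 7.59 for CAF1, 9.12 and 8.85 for CAF2, 8.59 and 8.55 for CAF3, 8.71 and 8.47 for CAF4, against 7.03 and 7.80 for NF2 and 8.19 and 7.98 for NF3. CAF2, CAF3 and CAF4 lay above all normal cultures in both of their cultures, and HpAF1 below. Its CAF3 difference of 0.82 did not pass (SE 0.24, adjusted p = 0.0851, limma), nor did the AdAF1 difference of -0.68 (SE 0.24, adjusted p = 0.16, limma). Chpt1, choline phosphotransferase of phosphatidylcholine synthesis, read 5.93 and 6.44 for HpAF1, 6.81 and 7.15 for AdAF1, 7.03 and 6.97 for CAF1, 7.29 and 7.32 for CAF2, 6.96 and 6.79 for CAF3, 8.02 and 7.78 for CAF4, against 6.72 and 6.61 for NF2 and 6.52 and 7.04 for NF3. CAF4 was highest, 1.18 above the normal mean, and HpAF1, where neither array detected it, was at least 1.16-fold lower.

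Cs, citrate synthase, the first step of the citrate cycle, had 8.53 and 8.24 for HpAF1, 8.84 and 9.12 for AdAF1, 8.67 and 8.94 for CAF1, 8.83 and 9.06 for CAF2, 8.14 and 8.92 for CAF3, 8.20 and 9.45 for CAF4, against 8.39 and 9.01 for NF2 and 8.36 and 9.13 for NF3. In 7 of the 8 lines culture 1 was below culture 2, most in CAF4 (-1.25), and the HpAF1 difference of -0.34 from the normal mean was the largest. Aig1, a hydrolase of fatty acid esters, was detected on 11 arrays, with 5.49 and 5.45 for HpAF1, 7.04 and 6.91 for AdAF1, 6.99 and 6.95 for CAF1, 6.14 and 6.35 for CAF2, 5.73 and 6.10 for CAF3, 6.54 and 7.16 for CAF4, against 6.22 and 7.08 for NF2 and 5.71 and 7.65 for NF3. It was at least 1.11-fold lower in HpAF1, where neither array detected it, and was the member furthest against the set in CAF2 (-0.42); NF3 culture 1 minus culture 2 was -1.94. Gpx4, the glutathione peroxidase that guards against lipid peroxidation, was at -0.74 in HpAF1 and 0.49 in CAF2, and Sgpl1, sphingosine phosphate lyase, at -0.25 and 0.47.

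Chromatin and RNA genes were 6. Hdac2, a class I histone deacetylase, read 10.74 and 10.51 for HpAF1, 10.69 and 10.39 for AdAF1, 10.94 and 10.98 for CAF1, 10.81 and 10.68 for CAF2, 11.06 and 10.82 for CAF3, 11.11 and 11.00 for CAF4, against 10.87 and 10.45 for NF2 and 10.78 and 11.32 for NF3. Its line means spanned 0.51, and NF3 culture 1 minus culture 2 was -0.54. Cirbp, a cold-inducible RNA-binding protein, had 6.74 and 6.78 for HpAF1, 7.61 and 8.03 for AdAF1, 7.76 and 7.80 for CAF1, 7.91 and 7.81 for CAF2, 7.72 and 7.77 for CAF3, 7.11 and 6.90 for CAF4, against 6.62 and 7.13 for NF2 and 6.63 and 8.25 for NF3. CAF1, CAF2 and CAF3 were 0.59 to 0.70 above the normal mean and CAF4 0.15 below it; the normal cultures themselves spanned the range of most lines. Sirt1, an NAD-dependent deacetylase, stood at 0.74 in CAF2 and 0.81 in CAF4 from the normal mean and at -0.73 in CAF1. Smarcb1, a core subunit of the SWI/SNF remodeller, stood at -0.76 in HpAF1, below all normal cultures. Nrbf2, of the autophagy lipid kinase complex, was at 0.50 in CAF2, and Polr2e, a subunit shared by the RNA polymerases, was within 0.39 of the normal mean in every line.

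Growth arrest and cell cycle genes were 4. Btg1, an antiproliferative factor, had 12.51 and 12.40 for HpAF1, 12.48 and 12.94 for AdAF1, 13.09 and 13.05 for CAF1, 13.51 and 12.50 for CAF2, 12.26 and 12.13 for CAF3, 12.34 and 12.13 for CAF4, against 12.40 and 11.95 for NF2 and 12.90 and 13.14 for NF3. It was 0.36 below the normal mean in CAF4 and 0.41 above it in CAF2, where culture 1 was 1.01 higher than culture 2. CAF2 minus CAF4 was 0.77. Gadd45b, a stress-induced growth arrest gene, lay above all normal cultures in CAF2 (0.90) and below them in CAF3 (-0.60) and HpAF1 (-0.60). Pa2g4, a growth regulator of ribosome synthesis, was at -0.51 in HpAF1 and 0.44 in CAF2, and Ccar1, a coactivator of apoptosis signalling, at -0.18 and 0.20.

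The members without a value are these. Enpp1, Cdk4 and Frs2 had no probe under that name. Ppil4, Sash1, Utrn, Plagl1, Fyn, Cd24a, Hk1, Srgn, Ube2d1, Cct2 and Hmga2 had probes that were detected on 0 arrays. The rest comprised 29 members whose probe was detected on all 16 arrays and 10 detected on fewer. Of the 9 members with several tested probes, the probes shared a sign in 8 for HpAF1, 7 for CAF2 and 9 for CAF4.

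Across carcinoma, line means were compared. Those of CAF1, CAF2, CAF3 and CAF4 all lay above both normal lines for 4 members, Sumo3, Sec63, Ahi1 and Chpt1, beside 5.51% of all genes. They all lay below for 0, beside 5.65%. By single cultures only Ahi1 lay above all normal cultures in every carcinoma line, while Sumo3, Sec63 and Chpt1 overlapped them in at least 1 line. The mean of the carcinoma lines minus the mean of the normal lines had a median of 0.07 over the members and of 0.00 over all genes. CAF2 and CAF4 are among these lines, so no test is given.

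Partner genes encoded elsewhere were set beside the members. Of the partners of members on other chromosomes (chaperonin, cyclin D, RNA polymerase II, SWI/SNF, Src family, histone deacetylase, citrate cycle and hexokinase genes), 26 were tested. Their medians were 0.28 in HpAF1, -0.04 in CAF2, 0.04 in CAF4 and -0.09 for NF3 culture 1 minus culture 2. The HpAF1 median had the opposite sign to the members' -0.43, but many partners belong to members without a tested probe. Those of Cct2, Cdk4, Fyn and Hk1 had HpAF1 medians of 0.27, 0.43, 0.64 and 1.21. For the measured members Polr2e, Cs, Hdac2 and Smarcb1 the partners' medians were 0.32, 0.01, -0.10 and -0.45, the last with Smarcc2 counted. Smarcc2, a SWI/SNF subunit listed as a partner, turned out to lie on chromosome 10, with differences of -0.81 in HpAF1, 0.67 in CAF2 and 0.56 in CAF4. None of the 5 tested chaperonin partners of Cct2 was above the normal mean in CAF2, and 4 were in HpAF1. Among the tested partners 1 passed in CAF1, the citrate cycle gene Mdh2, higher by 1.19 (SE 0.24, adjusted p = 0.013, limma), and 1 in CAF3, Polr2d, lower at -0.73 (SE 0.17, adjusted p = 0.0346, limma). Mdh2 lies on chromosome 5, whose median difference in CAF1 was 0.00. Polr2d lies on chromosome 18, whose median difference in CAF3 was -0.55, the lowest of the 20 chromosomes. Whether the level of a chromosome bears on either value was not tested.

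A second list held 20 other well-known genes of chromosome 10, of which 15 were tested; it shows how far single genes left the level of the chromosome. Its median was -0.11 in HpAF1, with 8 of 15 below the normal mean, 0.23 in CAF2, with 10 above, and 0.19 in CAF4, with 12 above. Dcn, the small collagen-binding proteoglycan decorin, had levels of 13.87 and 13.64 in HpAF1 and 7.84 and 7.17 in CAF2, against 10.15 and 10.23 in NF2 and 11.35 and 12.36 in NF3. It was high in HpAF1 and low in CAF2, the reverse of the members, and CAF2 minus CAF4 was -4.06 (SE 0.50). Tests passed for 2 of the 15 in AdAF1 and 2 in CAF1, both times Tnfaip3, the NF-kappa-B inhibitor A20, and Dcn, all higher. For Dcn the differences were 1.88 and 1.82 (SE 0.44 each, adjusted p = 0.0337 and 0.0278, limma). In CAF3 Ifngr1, a chain of the interferon gamma receptor, was higher by 0.65 (SE 0.15, adjusted p = 0.0352, limma). Between CAF2 and CAF4 Timp3, an inhibitor of matrix proteases, passed as higher by 1.88 (SE 0.39, adjusted p = 0.019, limma), and Dcn as lower.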

How the data were processed

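The 16 cultures of 8 fibroblast lines were each hybridised to 1 Illumina bead array. The authors deposited linear probe intensities without normalization, per the file headers, with a detection p-value of each probe against the negative controls of its array. A second deposited table holds linear intensities normalized between arrays, used as an alternative. Scanner software, chip and labelling day: not given in the sources used here. Precision is limited by the number of arrays.

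The neqc function of limma 3.58.1 in R 4.3.3 corrected background (offset 16; negative controls inferred from the detection p-values), equalised quantiles and took log2. Quantile normalization gives every array the same distribution, so a shift of all genes cannot be seen. Probes with detection p under 0.01 on at least 2 arrays were tested, 10453 of 25697. Each gene is represented by its brightest probe on average. Gene symbols came from GEO's platform annotation: 23978 probes had 1 symbol and 1719 none, and 23962 matched the RefSeq table of GRCm38.p6 by Entrez number, which gave chromosomes and gene order. Low signals are compressed towards background. Where no array of a group detected a probe, a fold is given as "at least" the mean of the brighter group against the lowest detected signal on the dimmer arrays, or not at all where that is under 1.

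A model with 1 mean per line was fitted to all 16 arrays (lmFit and eBayes of limma; residual degrees of freedom 8, prior 3.69). P-values are two-sided and adjusted by Benjamini-Hochberg over all tested probes, with a threshold of 0.05. The test was checked on simulated data. HpAF1, CAF2 and CAF4 against the normal lines, and the NF3 cultures, were not tested because the members were chosen on them. Members, lists and tests were chosen with earlier results of these data known. Values in every line are given for 14 members named whatever their values, where measured, for the 8 of largest range, for those that passed a test, and for up to 4 per line that went against the set; others are summarised.

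Alternatives were the authors' table, median scaling, other detection filters, the mean of a gene's probes, NF2 alone as normal, the culture number as a block and leaving out each culture. Drawing used Python 3.11.15 with matplotlib 3.10.9.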

Additional observations from a re-analysis of the deposited data

Results flagged for a closer look

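Among the 4 carcinoma lines, 3 of the 39 members had 1 line mean set apart from the other lines by more than Dixon's 95% critical value for 4 samples. Chance picks out about 1 in 20 groups in this way.

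Marcks stood at 12.81 in CAF3, against 12.14 to 12.25 in the other carcinoma lines; its CAF3 cultures were 13.32 and 12.30, so culture 1 carries the gap. Cirbp stood at 7.00 in CAF4, against 7.74 to 7.86 in the other carcinoma lines, with CAF4 cultures of 7.11 and 6.90. Rap1b stood at 11.21 in CAF3, against 11.53 to 11.59, with CAF3 cultures of 11.01 and 11.41.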

How the results depend on the processing

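The member medians kept their sign in HpAF1, CAF2, CAF4 and between the NF3 cultures under every alternative run. Leaving out each culture gave member medians of -0.63 to -0.27 in HpAF1, -0.13 to 0.14 in AdAF1, -0.13 to 0.12 in CAF1, 0.10 to 0.43 in CAF2, -0.34 to 0.03 in CAF3, 0.09 to 0.36 in CAF4 and -0.15 to 0.01 in CAF2 minus CAF4. Member probes past the adjusted p then numbered 0 to 2 in AdAF1, 0 to 3 in CAF1, 0 to 4 in CAF3 and 0 to 1 in CAF2 minus CAF4, and all probes 95 to 736, 128 to 1182, 118 to 841 and 158 to 291. A lone culture was assumed to vary like the other lines. With NF2 alone as normal, member probes passing were 0 in AdAF1, CAF1 and CAF3, and all probes 191, 305 and 249, on fewer arrays. In CAF1 1 member probe passed with the authors' table and 1 with no detection filter, and in AdAF1 0 with the mean of a gene's probes. With no detection filter the CAF2 median was 0.15, over more genes at background. The cause of the other changes was not tested. Counts against other normal cultures were added after seeing the data and stayed within 1.5 times: 28 to 36 members in HpAF1, 26 to 36 in CAF2 and 29 to 37 in CAF4.

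Culture numbers were not taken to pair the samples: over all 8 lines, 12 of 28 line pairs had deviations correlated over 0.1, from -0.20 to 0.65. Among CAF2, CAF3, CAF4, NF2 and NF3, singled out after the values were seen, 10 of 10 pairs did, from 0.14 to 0.65, a hint from the data and not from the design. With the culture number as a replicate block, member probes passing were 1 in AdAF1, 4 in CAF1, 1 in CAF3 and 0 in CAF2 minus CAF4, and all probes 544, 898, 561 and 385, each within 1.5 times the count without it. Arrays that detect few probes limit the 10 members detected on fewer than 16 arrays.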
